A study of Mus musculus with 45 samples.

Results

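The genes described here are 7 genes of the intrarenal renin-angiotensin system, namely Agt, Ren1, Ace, Agtr1a, Enpep, Mme and Anpep. They were taken by name from the 55401 genes of the count tables, without use of their values, and all 7 were among the 15991 protein-coding genes tested in males and the 15968 tested in females. Their messages were measured by translating ribosome affinity purification (TRAP), which pulls down mRNA on ribosomes carrying an EGFP-tagged L10a protein, followed by RNASeq. The libraries came from the kidneys of 45 mice, 1 library a mouse, in 6 groups of sex and genotype.

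All mice were 7 weeks old and carried the EGFP-tagged Rpl10a allele at the Rosa locus, Pax8rtTA and TetOCre, and all received doxycycline from postnatal day 28 to 42. Pax8rtTA directs Cre to tubule cells of the nephron and collecting duct, so the tag and the gene deletions were meant to share the same cells. Noncystic mice were Pkd1fl/+, Pkd1KO mice were Pkd1fl/fl, and Pkd1KO+ciliaKO mice were Pkd1fl/fl; Kif3afl/fl. Pkd1 is the gene mutated in most autosomal dominant polycystic kidney disease, and Kif3a encodes a kinesin subunit that primary cilia need. There were 8 noncystic, 7 Pkd1KO and 9 Pkd1KO+ciliaKO males, and 7 noncystic, 8 Pkd1KO and 6 Pkd1KO+ciliaKO females. Kidneys were taken at postnatal day 49. Noncystic mice kept 1 intact Pkd1 allele, so they were not wild type at this locus.

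In the renin-angiotensin system, angiotensinogen is cut by renin to angiotensin I, and angiotensin-converting enzyme then trims angiotensin I to angiotensin II. Angiotensin II raises blood pressure and sodium reabsorption through its type 1 receptor. Cell-surface peptidases end or redirect the signal by shortening these peptides further. The kidney is known to hold every one of these steps: proximal tubule cells make angiotensinogen and line their brush border with the converting enzyme and the peptidases, while renin is classically made by juxtaglomerular cells of the afferent arteriole.

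Angiotensinogen is the source of every angiotensin peptide, so the stretch of Agt that encodes angiotensin I is shown first. The stretch shown lies in exon 2, on the minus strand at chr8:124564420-124564509 of GRCm38. The 30 bases in capitals, chr8:124564450-124564479, encode the peptide, and 30 bases of the same exon are shown on either side.
Agt: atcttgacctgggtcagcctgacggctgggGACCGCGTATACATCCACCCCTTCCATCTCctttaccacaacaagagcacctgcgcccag

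Genotype comparisons turn on Ace and Anpep, and the 250 bases before their RefSeq transcription starts are shown for that reason (GRCm38.p6, each printed 5′ to 3′ on its gene's strand). The Ace window, the first of 2 that RefSeq lists for this gene, is chr11:105967698-105967947 on the plus strand, and the Anpep window is chr7:79848211-79848460 on the minus strand. Capitals mark the letters TATAAA on either strand.
Ace: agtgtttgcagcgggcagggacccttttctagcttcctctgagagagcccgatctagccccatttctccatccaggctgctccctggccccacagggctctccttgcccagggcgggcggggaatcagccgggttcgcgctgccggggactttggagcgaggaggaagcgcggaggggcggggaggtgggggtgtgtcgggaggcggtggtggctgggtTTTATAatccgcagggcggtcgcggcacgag
Anpep: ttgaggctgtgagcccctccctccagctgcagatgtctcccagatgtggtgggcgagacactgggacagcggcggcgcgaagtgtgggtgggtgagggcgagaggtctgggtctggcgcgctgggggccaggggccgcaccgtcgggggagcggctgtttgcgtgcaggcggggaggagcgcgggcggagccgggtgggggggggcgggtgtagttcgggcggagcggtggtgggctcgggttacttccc
The Ace window held TATAAA once, on the opposite strand and starting 31 bases before the transcription start. The Anpep window held none. This window lies inside the annotated Anpep gene, which reaches chr7:79861059 and has 6 annotated transcripts, and the start used in tubule cells was not tested. Of 32851 promoter windows of this length in the RefSeq table, 12.4% held these letters on either strand. GTTAAT, part of the site of the tubule factor HNF1, was found in 6.43% of all windows, and AGAACA, the half-site of androgen and glucocorticoid receptors, in 16.1%. Neither was in the Ace or the Anpep window. The Ace window was 67.2% G and C and the Anpep window 72.8%.

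The annotation puts Agt at chr8:124556534-124569706 (minus strand), Ren1 at chr1:133350510-133360325 (plus), Ace at chr11:105967945-105989964 (plus) and Agtr1a at chr13:30336441-30382867 (plus). Enpep lies at chr3:129269175-129332720 (minus), Mme at chr3:63241537-63386030 (plus) and Anpep at chr7:79821803-79861059 (minus). Levels were read over all annotated exons of each gene. Ace shared 295 exon bases with the antisense gene Gm11651, which held 31 counts over all mice against 914033 for Ace. Some mouse strains carry a second, nearly identical renin gene that the C57BL/6J assembly lacks, and reads of it could not be told from Ren1. Per the study's methods, its strains were backcrossed to C57BL/6J and expected to be largely congenic with it. Whether any of these mice carried the second gene was not tested.

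The gene counts of a mouse summed to 80874556 at the least and 132958186 at the most. Kif3a lay between 4.83 and 7.54 CPM in Pkd1KO+ciliaKO males and between 13.9 and 29.6 CPM in the other males. Pkd1 levels over the whole gene overlapped between all genotypes, and since only exons near its start are deleted, they do not check the Pkd1 labels. Several libraries stood apart and are named before the results. Kif3a was at 6.72 CPM in noncystic female replicate 5, against 22.9 to 25.4 in the other noncystic females, and at 20.5 CPM in Pkd1KO+ciliaKO female replicate 6, against 6.58 to 8.35 in the others. These libraries go against their labels. Among the males, noncystic replicate 3, Pkd1KO replicate 4 and Pkd1KO+ciliaKO replicates 6 and 8 lay nearest to the females in earlier results of these data. Their summed male-biased proximal tubule markers ranged from 292 to 1787 CPM, the lowest values of their groups. Results are given with and without these libraries where that matters. Because the 4 males were named for lying near the females, leaving them out favours larger sex differences and is no test of them. A fit without the 4 males leaves out only those that its comparison holds. In the sex comparisons these are noncystic replicate 3 alone, Pkd1KO replicate 4 alone, and Pkd1KO+ciliaKO replicates 6 and 8. Markers of the proximal tubule, thick ascending limb, distal tubule and collecting duct were above 3 counts in every mouse, as the tubule label requires. So were all 8 markers of juxtaglomerular and mural cells, all 7 of endothelium and all 6 of podocytes, none of which are tubule cells. In these bulk libraries, fewer cells of a type and less RNA per cell cannot be told apart.

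Per length of transcript, Ace and Anpep were the most abundant of the 7 and Ren1 the least. In males, the median TPM over all genotypes was 129 for Ace, 126 for Anpep, 81.6 for Agt, 68.8 for Enpep, 34.3 for Mme, 31.0 for Agtr1a and 13.7 for Ren1. In females the medians were 120 for Anpep, 92.6 for Ace, 86.2 for Agt, 58.3 for Mme, 57.1 for Enpep, 32.5 for Agtr1a and 17.1 for Ren1. The TPM tables were scaled separately for each sex, so only the order within a sex is compared. Ace had a higher median TPM than 92.5% of the protein-coding genes tested in males, and Ren1 a higher one than 53.4%.

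**Figure D1:**
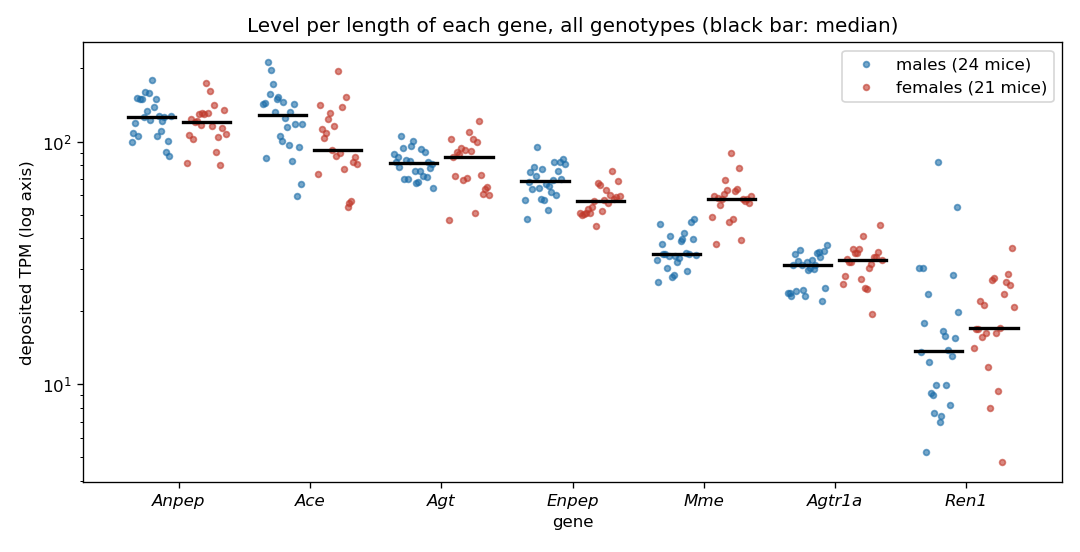
Deposited TPM of the 7 genes on a log axis, 1 point a mouse over all genotypes, with males in blue, females in red and the median as a black bar. Ace and Anpep lie highest, with medians from 92.6 to 129, and Ren1 lowest, with medians of 13.7 in males and 17.1 in females.

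Differences between groups were tested on the counts, and the levels below are CPM, counts scaled by the library total with TMM factors over all 45 mice, which compare mice within a gene and not genes with each other. A gene is called when its adjusted p in edgeR's quasi-likelihood test over all protein-coding genes is at most 0.05. Because the 3 genotypes of a sex were compared pair by pair, comparisons share groups.

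Counted over the 7 genes, 0 were called in Pkd1KO against noncystic males and 0 in females, where 6.3% and 3.34% of all genes tested were called. By unadjusted p, 1 and 2 of the 7 were under 0.05, and DESeq2 called 0 in each sex. In Pkd1KO against Pkd1KO+ciliaKO mice, 1 of 7 was called in males against 3.77% of all genes, and 2 of 7 in females against 11.7%. In Pkd1KO+ciliaKO against noncystic mice, 0 of 7 were called in males against 8.89% of all genes, with 1 under an unadjusted p of 0.05 and 1 called by DESeq2, and 1 of 7 in females against 2.54%. The median log2 fold change of the 7 in Pkd1KO against Pkd1KO+ciliaKO females was 0.30, against -0.01 over all genes. That median was the value of Agt, which was not called. In the other genotype comparisons the median of the 7 ran from -0.12 to 0.11. In males against females, 3 of 7 were called in noncystic, 2 in Pkd1KO and 3 in Pkd1KO+ciliaKO mice, where 27.5%, 27.2% and 14.6% of all genes were. The sex by genotype interaction called 0 of 7 in each of its 3 contrasts, against 0.0126%, 0.221% and 0.0316% of all genes. DESeq2 also called 0 in each, and 0, 1 and 0 members were under an unadjusted p of 0.05.

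**Figure D2:**
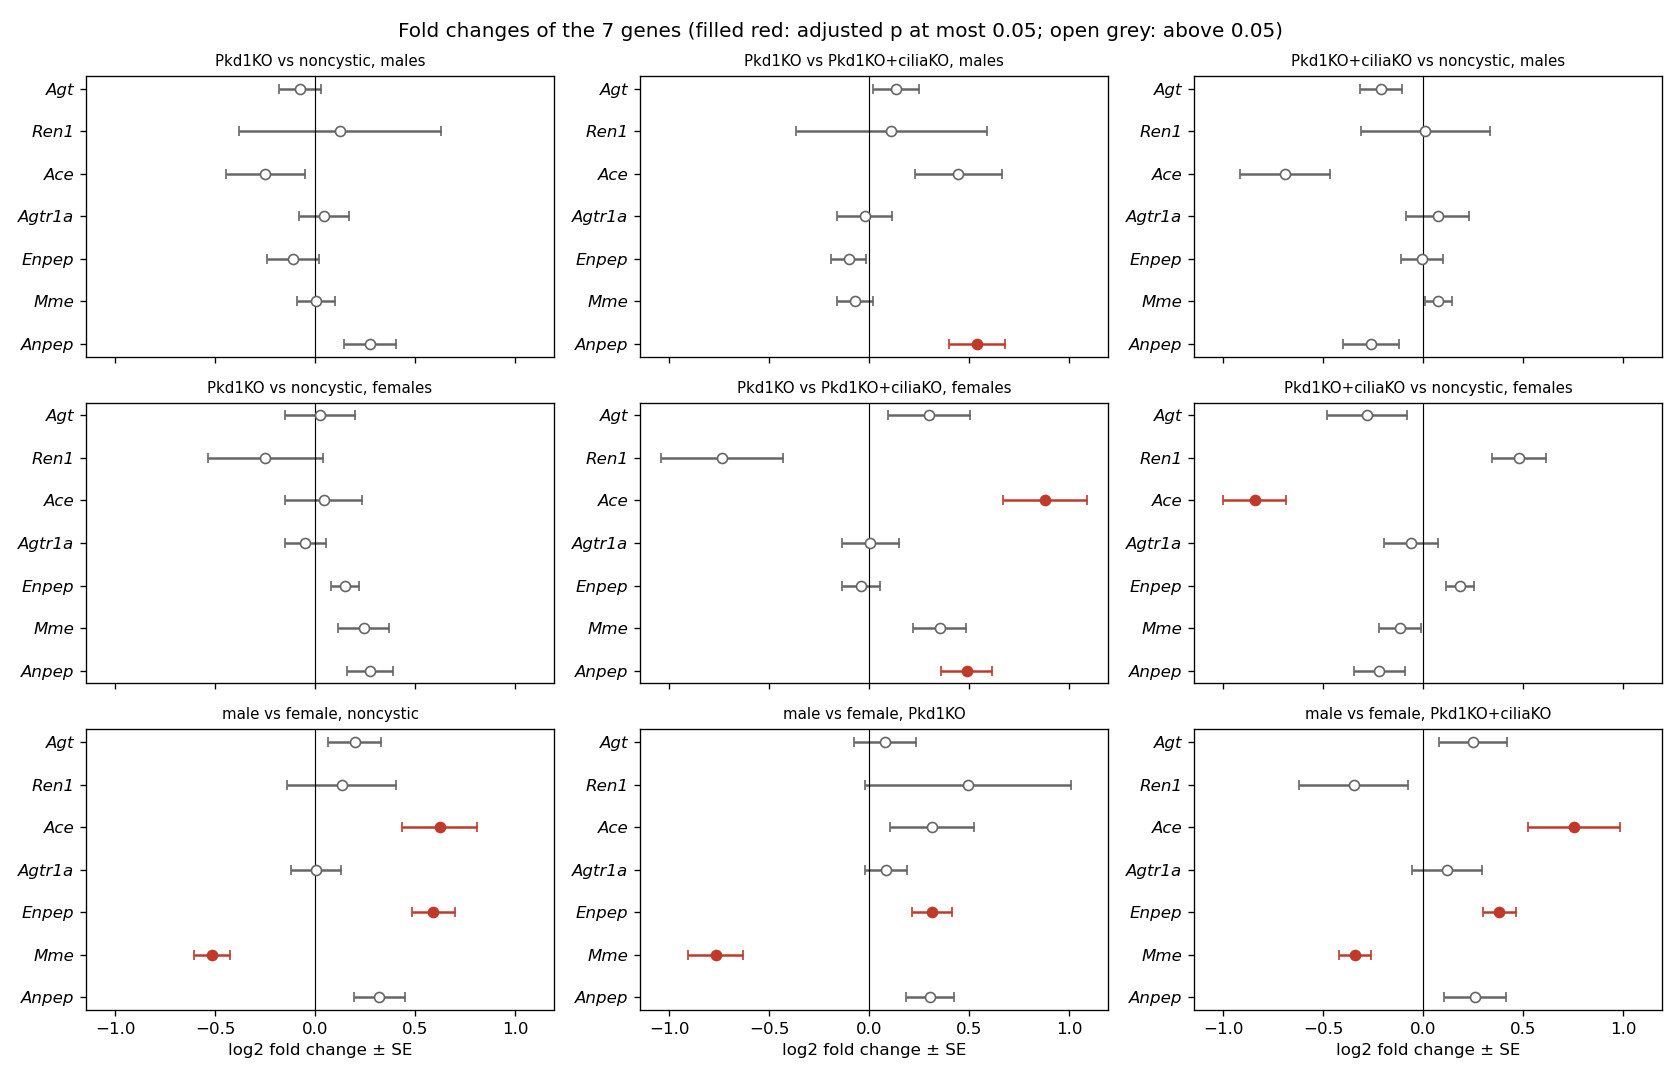
Log2 fold changes with their SE for the 7 genes in the 6 genotype comparisons (upper and middle rows) and the 3 sex comparisons (lower row), filled red where the edgeR adjusted p is at most 0.05. Ace and Anpep are the only members called between genotypes, and Enpep and Mme are called with opposite signs in all 3 sex comparisons.

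**Figure D3:**
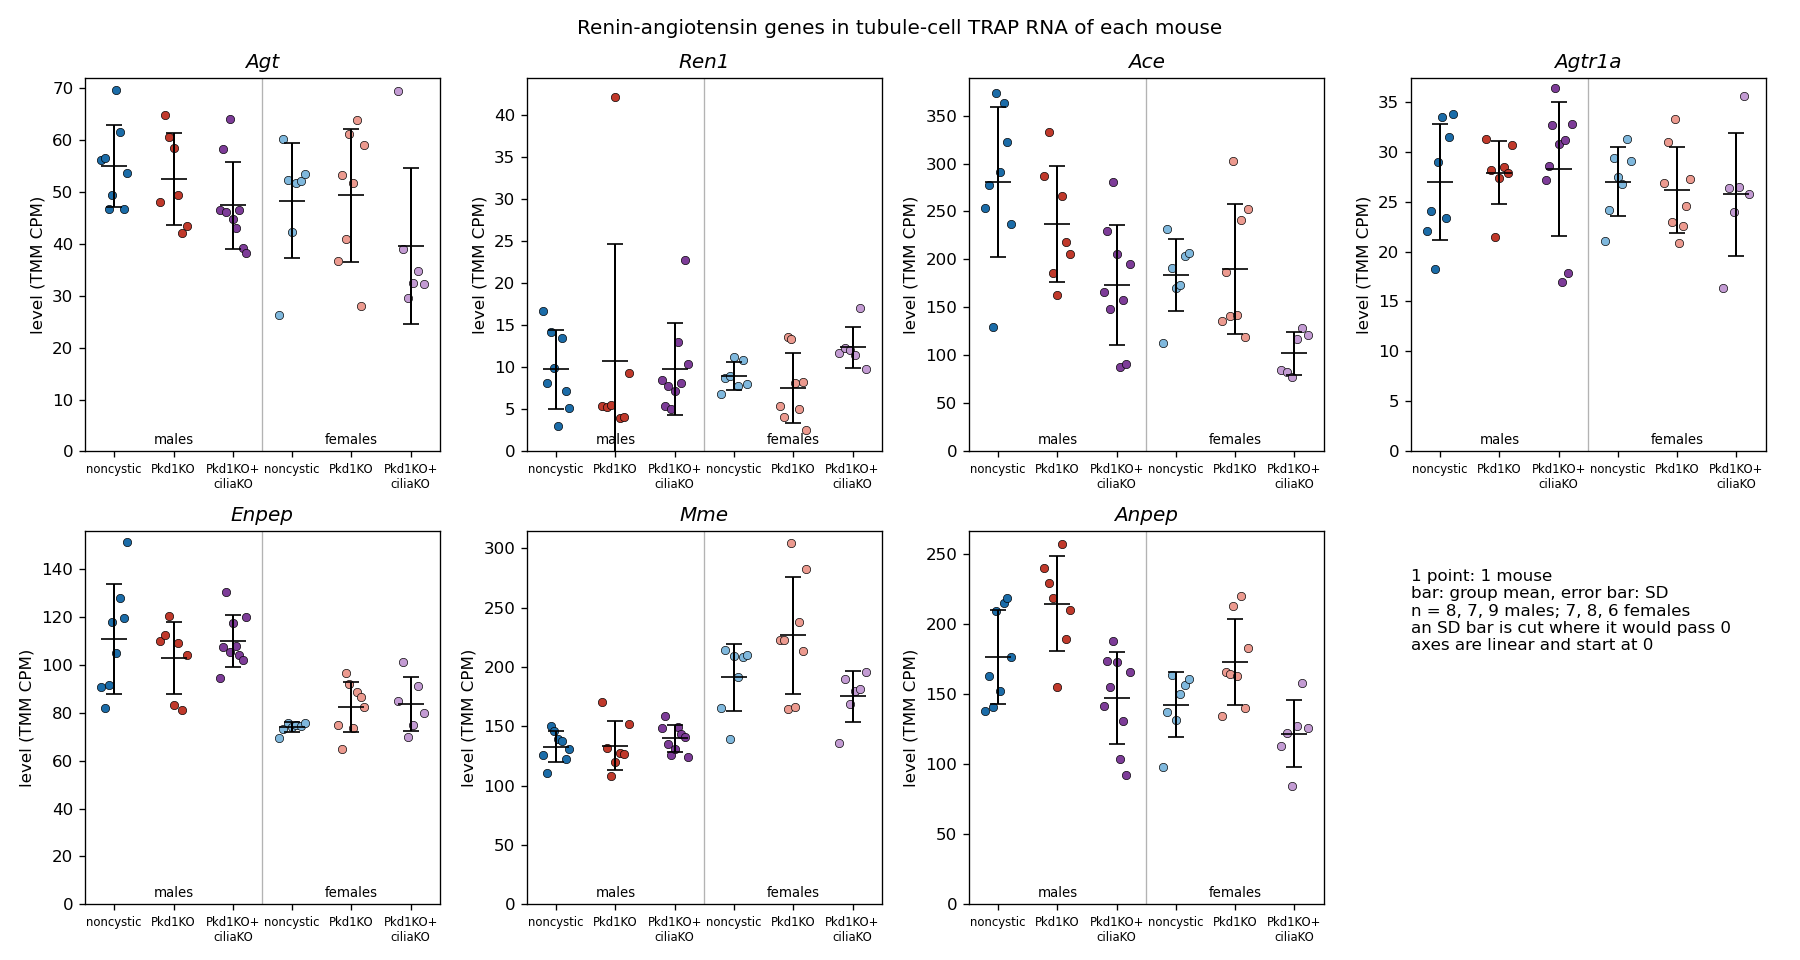
TMM CPM of each gene in every mouse (points) with the group mean and SD (bars), males left and females right of the grey line, on linear axes from 0. Ace is lowest in Pkd1KO+ciliaKO females (77.2 to 129 CPM), Mme is higher in females than in males, Enpep is higher in males, and 1 Pkd1KO male stands alone in Ren1 at 42.1 CPM.

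Agt, the gene of the substrate, was not called in any of the 9 comparisons between genotypes or sexes. In males its lowest, median and highest levels were 46.7, 54.8 and 69.6 CPM in noncystic mice, 42.2, 49.4 and 64.8 CPM in Pkd1KO mice, and 38.2, 46.1 and 64.0 CPM in Pkd1KO+ciliaKO mice. In females they were 26.3, 52.0 and 60.2 CPM, 28.0, 52.5 and 63.8 CPM, and 29.5, 33.7 and 69.5 CPM in the same order. The groups overlapped widely, and no step in the order of the 6 group means was larger than the SD of the groups on either side of it. Of the 6 Pkd1KO+ciliaKO females, 5 lay between 29.5 and 38.9 CPM, and replicate 1 stood alone at 69.5 CPM. The difference of Pkd1KO from Pkd1KO+ciliaKO in females was 0.30 ± 0.20 in log2 (SE), with an edgeR adjusted p of 0.36. Leaving out that 1 mouse moved it to 0.53 ± 0.17, with an edgeR adjusted p of 0.04997. The male against female difference within Pkd1KO+ciliaKO mice likewise moved from 0.25 ± 0.17 to 0.48 ± 0.11 in log2 without it (edgeR adjusted p = 0.342 and 0.0126). The first was called in 0 of 10 other alternatives and the second in 1 of 8, limma voom with sample quality weights (adjusted p = 0.00332).

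Ren1, the gene of the enzyme that cuts angiotensinogen, had the widest spread of the 7. Its highest level among the 45 mice was 16.9 times its lowest, against 2.22 to 4.84 times for the other members. The lowest, median and highest levels in males were 3.06, 9.04 and 16.6 CPM in noncystic mice, 4.00, 5.43 and 42.1 CPM in Pkd1KO mice and 5.07, 8.09 and 22.8 CPM in Pkd1KO+ciliaKO mice. In females they were 6.79, 8.72 and 11.3 CPM, 2.49, 6.75 and 13.6 CPM, and 9.79, 11.9 and 17.0 CPM. Pkd1KO male replicate 4 stood apart at 42.1 CPM, while the other 6 Pkd1KO males lay between 4.00 and 9.32 CPM. Among females, 5 of 6 Pkd1KO+ciliaKO mice lay above every noncystic mouse, and 6 of 8 Pkd1KO mice lay below every Pkd1KO+ciliaKO mouse.

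No Ren1 difference was called. In females, Ren1 in Pkd1KO+ciliaKO against noncystic mice had a log2 fold change of 0.48 ± 0.13 (SE), with an edgeR adjusted p of 0.0673, and in Pkd1KO against Pkd1KO+ciliaKO mice of -0.73 ± 0.31, with an edgeR adjusted p of 0.128. The latter was called in 1 of 10 alternatives, limma voom with sample quality weights (adjusted p = 0.0191). The former was called in 4 of 10 alternatives, over which the adjusted p ran from 0.0142 to 0.344. The fit without both females whose Kif3a goes against the label was not among those 4. Without Pkd1KO+ciliaKO replicate 6 alone, which had the lowest Ren1 of its group, the difference was called (0.55, edgeR adjusted p = 0.0412). The 3 male log2 fold changes ran from 0.01 to 0.13, and their sign rested on single mice. Without Pkd1KO male replicate 4, Ren1 in Pkd1KO against noncystic males went from 0.13 ± 0.51 to -0.79 ± 0.32 in log2, and against Pkd1KO+ciliaKO males from 0.11 ± 0.48 to -0.81 ± 0.30, neither called by edgeR (adjusted p = 0.199 and 0.149). Within Pkd1KO+ciliaKO mice, the male against female log2 difference in Ren1 was -0.35 ± 0.27, and without male replicate 8 it was -0.62 ± 0.18 and was called by edgeR (adjusted p = 0.0246).

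The mouse with the highest Ren1 was also high in markers of several cell types that are not tubule cells. Pkd1KO male replicate 4 had the highest sum of the 8 juxtaglomerular and mural markers of all mice, 605 CPM, where the other Pkd1KO males had 174 to 423 CPM. Its sum of the 7 endothelial markers was 481 CPM, where the others had 99.3 to 174 CPM. The same mouse had the highest sums of all mice for podocyte (194 CPM), macrophage (376 CPM) and fibroblast markers (1089 CPM), and the lowest proximal tubule sum of its group (7293 CPM). Pkd1KO male replicate 3, with 423 CPM of juxtaglomerular and mural markers, had Ren1 at 5.49 CPM. Pkd1KO+ciliaKO male replicate 8, with the second highest Ren1 of all mice at 22.8 CPM, had 403 and 299.6 CPM for these lists, the highest of its group in both. Of the 8 juxtaglomerular and mural markers, Mcam was called higher in Pkd1KO+ciliaKO than in noncystic females (log2 0.70). It was called lower in Pkd1KO than in Pkd1KO+ciliaKO females (-0.62), and the other 7 were not called in either. The Ren1 differences had the same signs but were not called. Of all genes, 2.54% and 11.7% were called in these comparisons. The part of these cells in the Ren1 levels was not tested. Over the 45 mice, the genes whose levels were most like that of Ren1 were Ptprm, Npr1 and Tie1 (Pearson r on log2 CPM of 0.89, 0.86 and 0.85). After subtraction of the 6 group means they were Tie1, Robo4 and Arhgap31 (0.91, 0.90 and 0.89). Tie1 and Robo4 are receptors known from endothelium. All points share their library and its depth.

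**Figure D4:**
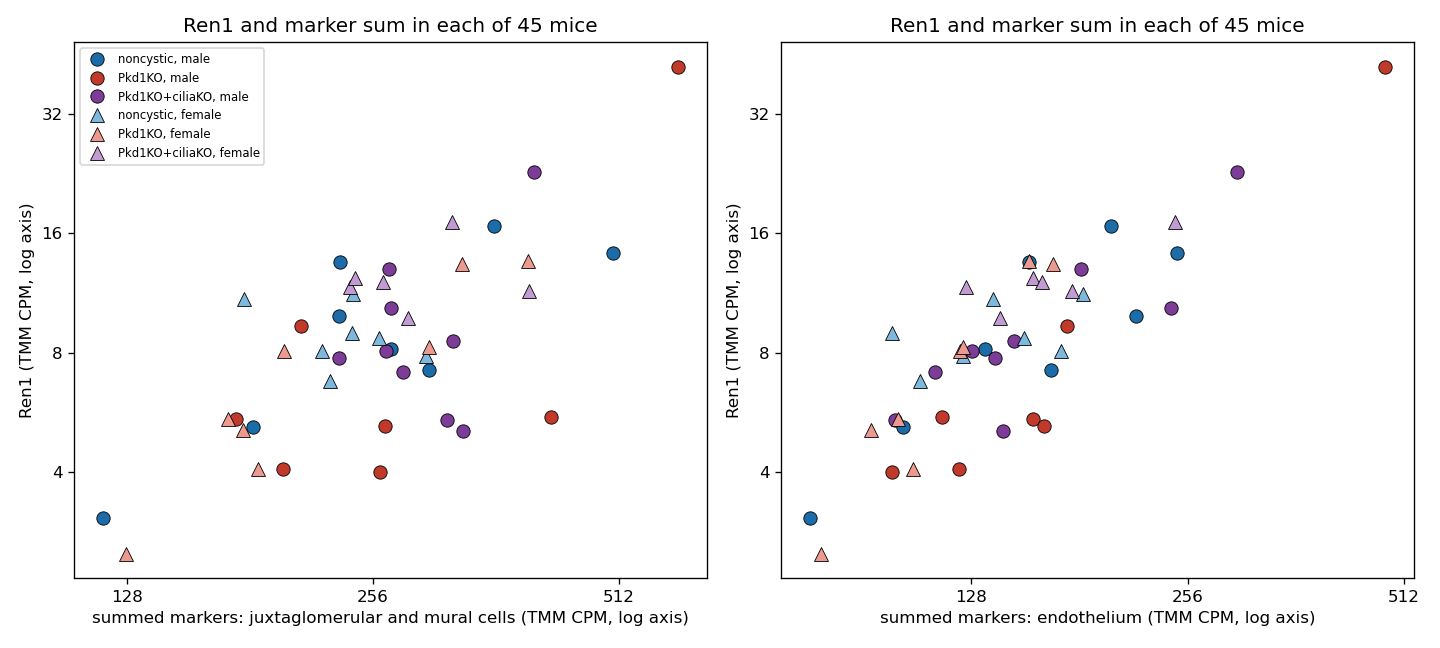
Ren1 level of each mouse against its summed juxtaglomerular and mural markers (left) and endothelial markers (right), both in TMM CPM on log axes, circles for males and triangles for females. The mouse with the highest Ren1, 42.1 CPM, also has the highest sum in both panels, 605 and 481 CPM.

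Ace, the gene of the enzyme that makes angiotensin II, was lower in Pkd1KO+ciliaKO females than in females of either other genotype. Its level was 102 ± 22.6 CPM (SD, n = 6) in Pkd1KO+ciliaKO females, against 190 ± 67.5 CPM (n = 8) in Pkd1KO and 184 ± 37.7 CPM (n = 7) in noncystic females. The lowest, median and highest levels were 77.2, 101 and 129 CPM in Pkd1KO+ciliaKO, 119, 165 and 303 CPM in Pkd1KO, and 113, 191 and 232 CPM in noncystic females. Of the 8 Pkd1KO females, 7 lay above every Pkd1KO+ciliaKO female, as did 6 of the 7 noncystic females. The log2 fold change of Pkd1KO over Pkd1KO+ciliaKO females was 0.88 ± 0.21 (SE), with an edgeR adjusted p of 0.0139. That of Pkd1KO+ciliaKO over noncystic females was -0.84 ± 0.16, with an edgeR adjusted p of 0.0209. The first was called in all 10 alternatives and without any of the 14 mice. The second was called in all 10 alternatives but was lost without Pkd1KO+ciliaKO replicate 2, 3 or 4 (highest adjusted p 0.0688).

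In males Ace was also lowest in Pkd1KO+ciliaKO mice, without passing the threshold. Male levels were 129, 284 and 374 CPM (lowest, median and highest) in noncystic, 163, 219 and 333 CPM in Pkd1KO and 87.6, 167 and 281 CPM in Pkd1KO+ciliaKO mice. Every one of the 9 Pkd1KO+ciliaKO males lay below the noncystic median, although the groups overlapped. Pkd1KO over Pkd1KO+ciliaKO males gave a log2 fold change of 0.45 ± 0.22 (SE), with an edgeR adjusted p of 0.268. For Pkd1KO over noncystic mice it was -0.25 ± 0.20 in males and 0.04 ± 0.19 in females (edgeR adjusted p = 0.499 and 0.952). The log2 fold change of Pkd1KO+ciliaKO over noncystic males was -0.69 ± 0.22 (SE), with an edgeR adjusted p of 0.0621. This difference was called in 6 of 10 alternatives, among them the fit without the 4 males named above (-0.62, adjusted p = 0.00785), and the adjusted p ran from 0.00785 to 0.0747 over the 10. It was also called without noncystic replicate 3 or Pkd1KO+ciliaKO replicate 4 (adjusted p = 0.0142 and 0.0258). Those 4 males had the lowest Ace of their groups, with 87.6 and 90.8 CPM in Pkd1KO+ciliaKO replicates 6 and 8. The sex by genotype interaction of Ace was not called in any of the 3 contrasts, so a difference between the sexes in this effect was not shown.

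Anpep, whose product aminopeptidase N removes an amino acid from angiotensin III, was higher in Pkd1KO than in Pkd1KO+ciliaKO mice of both sexes. In males it was 214 ± 33.8 CPM (SD, n = 7) in Pkd1KO, 147 ± 32.8 CPM (n = 9) in Pkd1KO+ciliaKO and 176 ± 33.6 CPM (n = 8) in noncystic mice. In females it was 173 ± 30.8 CPM (n = 8), 122 ± 23.7 CPM (n = 6) and 142 ± 22.9 CPM (n = 7) in the same order. The lowest, median and highest levels were 155, 218 and 257 CPM in Pkd1KO and 91.9, 155 and 188 CPM in Pkd1KO+ciliaKO males, and 134, 165 and 219 CPM and 84.5, 124 and 158 CPM in the corresponding females. In each sex, 6 Pkd1KO mice lay above every Pkd1KO+ciliaKO mouse. The log2 fold change of Pkd1KO over Pkd1KO+ciliaKO was 0.54 ± 0.14 (SE) in males and 0.49 ± 0.13 in females, with edgeR adjusted p of 0.0387 and 0.0233.

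The female Anpep difference was called in all 10 alternatives and was lost without 1 of the 14 mice, Pkd1KO+ciliaKO replicate 3 (adjusted p = 0.0527). The male Anpep difference was called in 9 of 10 alternatives, the fit without the 4 males included (0.48, adjusted p = 0.00595). That fit left out Pkd1KO replicate 4 and Pkd1KO+ciliaKO replicates 6 and 8. These had the lowest Anpep of their groups, at 155, 104 and 91.9 CPM. Leaving them out narrows the spread within groups, so that fit is no independent check. The male difference was lost when any 1 of 9 of the 16 males was left out, with a highest adjusted p of 0.0869. These 9 were Pkd1KO replicates 1, 2, 3, 5 and 7 and Pkd1KO+ciliaKO replicates 1, 3, 6 and 7. Pkd1KO mice also had more Anpep than noncystic mice on average, by 0.27 ± 0.13 in log2 in males and 0.27 ± 0.11 in females, but neither passed edgeR's threshold (adjusted p = 0.218 and 0.228).

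Ace and Anpep levels went together from mouse to mouse. Over the 45 mice their Pearson r on log2 CPM was 0.83, and it was 0.84 after the 6 group means were subtracted. This was the highest value among the 7 genes. The genes most like Ace were Htatip2, Cgref1 and Naglu (0.92, 0.91 and 0.90), and within groups Galc, Slc3a1 and Hsd17b2 (0.90, 0.89 and 0.88). Those most like Anpep were Lrpap1, Pigk and Sumf1 (0.91, 0.88 and 0.88), and within groups Ggt1, Lrpap1 and Rpn2 (0.88, 0.87 and 0.86). Slc3a1 and Ggt1 encode proteins of the proximal tubule brush border, a dibasic amino acid transporter subunit and gamma-glutamyltransferase.

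Markers of tubule segments were read in the same comparisons, and the summed levels given here were not tested. The summed level of 7 proximal tubule markers had medians of 10536 CPM in noncystic, 9987 CPM in Pkd1KO and 8798 CPM in Pkd1KO+ciliaKO females, and of 14381, 11045 and 10020 CPM in males. In Pkd1KO+ciliaKO against noncystic mice, 1 of the 7 was called lower in females (Slc27a2) and 4 in males (Slc5a2, Slc5a12, Cubn and Lrp2). The median log2 fold change of the 7 there was -0.16 in females and -0.50 in males. Of all genes, 2.54% and 8.89% were called in these contrasts. In Pkd1KO against Pkd1KO+ciliaKO mice, 1 of the 7 was called higher in each sex, Slc5a2, the gene of a sodium-glucose transporter of early proximal tubule, and the median log2 fold change of the 7 was 0.11 in males and 0.10 in females. For the 5 markers of the S3 segment, the latest stretch of the proximal tubule, the summed medians were 992, 1195 and 637 CPM in females and 3690, 3789 and 2701 CPM in males. In each sex 1 S3 marker was called higher in Pkd1KO and 1 lower in Pkd1KO+ciliaKO mice in these contrasts, Atp11a in females and Slc5a10 in males. The median log2 fold change of the 5 in Pkd1KO against Pkd1KO+ciliaKO mice was 0.64 in males and 0.78 in females. In Pkd1KO+ciliaKO against noncystic mice it was -0.76 in males and -0.48 in females. In Pkd1KO against Pkd1KO+ciliaKO mice, some markers of later segments were called lower, among them 2 of 5 of the thick ascending limb in each sex. For the distal convoluted tubule it was 1 of 4 in males and 2 of 4 in females, and for intercalated cells 1 of 5 in each sex. Of the 5 principal cell markers 0 were called in either sex, with median log2 fold changes of -0.17 in males and 0.02 in females. Among all genes, 3.77% in males and 11.7% in females were called in these comparisons. The part of these segments in the Ace and Anpep differences was not tested.

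**Figure D5:**
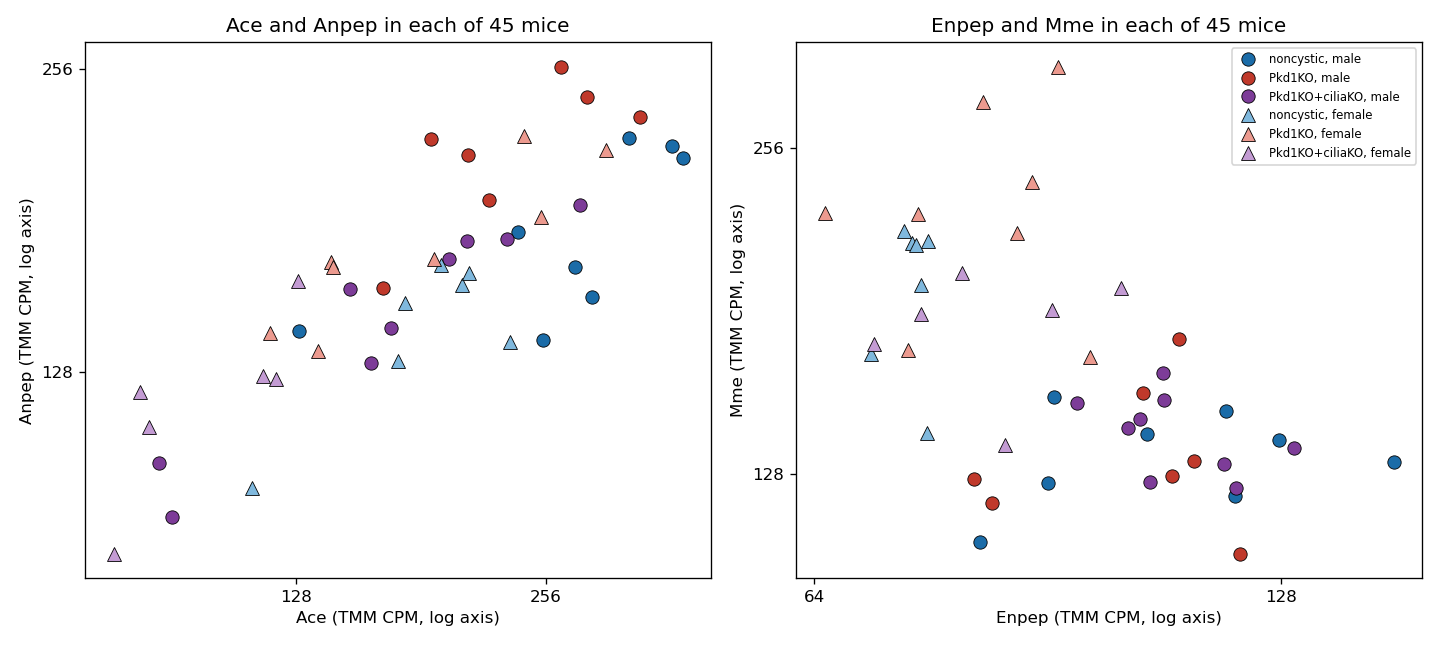
Levels of Ace and Anpep (left) and of Enpep and Mme (right) in each of 45 mice, in TMM CPM on log axes, circles for males and triangles for females, coloured by genotype. Ace and Anpep run along a diagonal (r = 0.83), and Enpep and Mme separate the sexes, with males lower right and females upper left.

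Agtr1a, the gene of the main angiotensin II receptor of mouse kidney, had the smallest ratio of highest to lowest level over all mice, 2.22, although within groups its spread was not the smallest. Group medians lay between 25.7 and 30.8 CPM. The lowest and highest levels were 18.3 and 33.8 CPM in noncystic, 21.5 and 31.3 CPM in Pkd1KO and 17.0 and 36.3 CPM in Pkd1KO+ciliaKO males. In females they were 21.01 and 31.2 CPM, 20.9 and 33.3 CPM, and 16.3 and 35.6 CPM. All 6 groups overlapped, and no step between neighbouring group means exceeded the SD of either group. The 9 log2 fold changes ran from -0.06 to 0.12, with edgeR adjusted p from 0.586 to 0.979, and no alternative called one. Noncystic male replicate 3 and Pkd1KO+ciliaKO male replicates 6 and 8 had the lowest Agtr1a of their groups, at 18.3, 17.0 and 17.8 CPM. Within groups, the genes most like Agtr1a were Cckar, Ffar3 and Gpr137b (0.82, 0.81 and 0.81). Over all mice they were Dkk2, Ggct and Espn (0.72, 0.71 and 0.71).

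Enpep, whose product aminopeptidase A turns angiotensin II into angiotensin III, differed by sex, with no call between genotypes. Its lowest, median and highest levels were 81.9, 111 and 151 CPM in noncystic, 81.1, 109 and 120.4 CPM in Pkd1KO and 94.5, 107 and 130.5 CPM in Pkd1KO+ciliaKO males. In females they were 69.6, 74.4 and 75.8 CPM, 65.0, 84.3 and 96.4 CPM, and 70.0, 82.3 and 101 CPM. Noncystic males and females did not overlap, and 8 of 9 Pkd1KO+ciliaKO males lay above all 6 Pkd1KO+ciliaKO females. The log2 difference of males from females was 0.59 ± 0.11 (SE) in noncystic, 0.32 ± 0.10 in Pkd1KO and 0.38 ± 0.08 in Pkd1KO+ciliaKO mice, with edgeR adjusted p of 0.000535, 0.0275 and 0.00633. The Pkd1KO value was lost without any 1 of 6 of the 15 mice (highest adjusted p 0.0626), namely male replicate 1, 2, 3 or 5 or female replicate 1 or 5. In the 6 genotype comparisons the lowest edgeR adjusted p of Enpep was 0.149, for Pkd1KO+ciliaKO against noncystic females, which 2 of 10 alternatives called.

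Mme, the gene of neprilysin, which cuts angiotensin I to angiotensin-(1-7), went the other way. The lowest, median and highest levels in males were 111, 134 and 151 CPM in noncystic, 108, 127 and 171 CPM in Pkd1KO and 124, 141 and 159 CPM in Pkd1KO+ciliaKO mice. In females they were 140, 208 and 215 CPM, 164, 223 and 304 CPM, and 136, 181 and 196 CPM. Every male lay below the female median of its genotype. The log2 difference of males from females was -0.52 ± 0.09 (SE) in noncystic, -0.77 ± 0.14 in Pkd1KO and -0.34 ± 0.08 in Pkd1KO+ciliaKO mice, with edgeR adjusted p of 0.00044, 0.000562 and 0.01. These calls held without any single mouse and without the libraries named above, and the one in Pkd1KO+ciliaKO mice was made in 7 of 8 alternatives (highest adjusted p 0.0527). Some other markers also lay lower in males. Of the 6 female-biased proximal tubule markers, a list defined by sex, 6, 6 and 5 were called lower in noncystic, Pkd1KO and Pkd1KO+ciliaKO males. In the same order, 2, 4 and 3 of the 5 thick ascending limb markers and 3, 4 and 3 of the 5 intercalated cell markers were called lower. So were 3, 3 and 1 of the 5 principal cell markers and 4, 3 and 2 of the 4 mast cell markers tested. Of the 7 general proximal tubule markers, 0, 1 and 3 were called lower and 2, 2 and 1 higher. For the 5 S3 markers it was 0, 1 and 1 lower and 3, 3 and 3 higher. Distal convoluted tubule markers had 0, 1 and 0 of 4 called lower. Among all genes, 27.5%, 27.2% and 14.6% were called, in either direction. The part of these lists in the Mme difference was not tested. Among females, Mme was highest in Pkd1KO mice, and Pkd1KO exceeded Pkd1KO+ciliaKO by 0.35 ± 0.13 in log2 with an edgeR adjusted p of 0.0906. It was called without Pkd1KO female replicate 3 or 5 (adjusted p = 0.0399 and 0.0463). In the interaction, the Mme difference of Pkd1KO from Pkd1KO+ciliaKO was lower in males than in females by -0.42 ± 0.15 in log2, with an unadjusted p of 0.00868 and an edgeR adjusted p of 0.394.

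Like Enpep, Ace was higher in males, and Anpep had higher male means that did not pass the threshold. Ace was higher in noncystic males than in noncystic females by 0.62 ± 0.19 in log2 (SE), and in Pkd1KO+ciliaKO mice by 0.76 ± 0.23, with edgeR adjusted p of 0.0186 and 0.0355. The latter was lost without any 1 of 9 of the 15 mice, with a highest adjusted p of 0.0828. In Pkd1KO mice the Ace log2 difference was 0.32 ± 0.21, which edgeR did not call (adjusted p = 0.287). For Anpep the 3 log2 differences were 0.32 ± 0.13, 0.31 ± 0.12 and 0.26 ± 0.15 in noncystic, Pkd1KO and Pkd1KO+ciliaKO mice, none called by edgeR (adjusted p = 0.0666, 0.0709 and 0.272). Without noncystic male replicate 3, the only male of the 4 in that comparison, the first was called (0.35, edgeR adjusted p = 0.0346). Without Pkd1KO male replicate 4, likewise the only male of the 4 there, the second was called (0.38, edgeR adjusted p = 0.0159). The first was also called without noncystic male replicate 1, and the second without Pkd1KO female replicate 4 or 6. Fits without any of the 4 males cannot test a sex difference, because these males were named for lying near the females. All 7 male-biased proximal tubule markers, a list defined by sex, were called higher in males in each genotype. Their part in these differences was not tested.

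Enpep and Mme levels had a Pearson r of -0.53 over the 45 mice and of 0.08 after the group means were subtracted. Among the genes most like Enpep were Igf2r and Lrrc8a (0.81 and 0.78), and within groups Vldlr, Npc1 and Ptprk (0.79, 0.74 and 0.72). Those most like Mme were Laptm4b, Scrg1 and Ly6f (0.90, 0.87 and 0.87), and within groups Manea, Dpy19l4 and Laptm4b (0.75, 0.71 and 0.67). For Agt they were Fga, Cdhr2 and Apoa1 (0.75, 0.74 and 0.72), and within groups Fga, Cdhr2 and Ndufb8 (0.76, 0.75 and 0.73). Fga and Apoa1 encode secreted plasma proteins, as Agt does, while Cdhr2 and Ndufb8 do not.

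The other genes of the pathway were followed in a list of 19, of which 12 passed the filter in males and 13 in females. Agtr1b, Agtr2, Mrgprd, Ctsg, Cma1 and Mcpt4 did not pass in either sex, and Cpa3 passed in females only. Agtr1b, the second mouse type 1 receptor gene, had at most 6 counts in any mouse, and Agtr2, the type 2 receptor gene, at most 7. Cma1 and Mcpt4, which encode mast cell chymases that can also make angiotensin II, had at most 12 and 14. These levels lie near the floor of 3 counts, which covers counting error only.

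Mas1, the gene of the receptor for angiotensin-(1-7), differed between genotypes in males. Its lowest, median and highest levels were 0.633, 1.86 and 2.80 CPM in noncystic, 1.94, 4.10 and 4.86 CPM in Pkd1KO and 0.132, 0.803 and 1.37 CPM in Pkd1KO+ciliaKO males, and Pkd1KO and Pkd1KO+ciliaKO males did not overlap. Female medians were 0.434, 0.438 and 0.353 CPM. The male log2 fold change was 1.00 ± 0.27 (SE) for Pkd1KO over noncystic, 2.16 ± 0.34 for Pkd1KO over Pkd1KO+ciliaKO and -1.16 ± 0.35 for Pkd1KO+ciliaKO over noncystic mice. The edgeR adjusted p were 0.0348, 0.00157 and 0.0472. The first was lost without any 1 of 8 of 15 males and the third without any 1 of 12 of 17, while the second held without any 1 of 16. In the order given, 8, 9 and 10 of 10 alternatives called them, with highest adjusted p of 0.133, 0.0531 and 0.0496. The 4 males named above had the lowest Mas1 of their groups, and without them all 3 were called (adjusted p = 0.00451, 8.43e-06 and 0.00399). No Mas1 difference was called among females. Its sex by genotype interactions were not called by edgeR, while DESeq2 called that of Pkd1KO against Pkd1KO+ciliaKO.

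Of the 12 other genes tested in both sexes, 5 were higher and 1 lower in males among noncystic mice, 6 and 1 among Pkd1KO mice, and 3 and 0 among Pkd1KO+ciliaKO mice. Of all genes, 27.5%, 27.2% and 14.6% were called in these comparisons, in either direction. The median log2 differences of the 12 were 0.19, 0.21 and 0.16, where the medians of all genes were -0.01, 0.01 and -0.01. Besides Mas1, the genes higher in males included Prcp, Nln, Dpp3, Ctsa and Agtrap. The Mas1 call in Pkd1KO+ciliaKO mice was lost without any 1 of 10 of 15 mice and without the 2 females whose Kif3a goes against the label (adjusted p = 0.0548), and the Ctsa call in noncystic mice without any 1 of 6 of 15. Prcp, which encodes a carboxypeptidase acting on angiotensin II and III, differed by 0.58 ± 0.11, 0.54 ± 0.10 and 0.67 ± 0.14 in log2. Klk1, which encodes tissue kallikrein of the distal nephron, was lower in males by -0.52 ± 0.14 in noncystic and -0.67 ± 0.14 in Pkd1KO mice. Klk1 belongs to a large family of similar genes, and reads shared with them were not resolved here. Between genotypes, the list had 1 call in each of the 3 male comparisons, Mas1 each time, and 0 in each of the 3 female comparisons. Of all genes, 6.3% of males' tests and 3.34% of females' were called in Pkd1KO against noncystic mice. The shares were 3.77% and 11.7% in Pkd1KO against Pkd1KO+ciliaKO mice, and 8.89% and 2.54% in Pkd1KO+ciliaKO against noncystic mice. In females, 0, 2 and 5 of the 13 were under an unadjusted p of 0.05 in Pkd1KO against noncystic, Pkd1KO against Pkd1KO+ciliaKO and Pkd1KO+ciliaKO against noncystic mice, and DESeq2 called 0, 0 and 2, the 2 being Lnpep and Klk1, of which Lnpep is named only because its values were seen.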

How the data were processed

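Per the labels and the study's methods, reads were trimmed (fastp 0.20.0), mapped to the mouse assembly GRCm38.p6 (STAR 2.7.9) and assigned to GENCODE vM25 genes (featureCounts 2.0.0). The authors deposited the resulting raw counts per gene and mouse. A second deposited table for each sex holds TPM and is limited to protein-coding genes reaching 6 counts in 20% or more of its mice. Libraries were depleted of ribosomal RNA and sequenced in a single batch. The strand and multimapping options are not given in the sources used here.

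Groups were taken from the sample labels. Each pair of genotypes within a sex, and each sex difference within a genotype, was fitted by itself on the counts with edgeR 4.0.16 (TMM, quasi-likelihood test, Benjamini-Hochberg adjustment over all protein-coding genes). The sex by genotype interaction was fitted on all 45 mice. The SE is the log2 fold change divided by the square root of F. The 7 genes, the other lists and the tests were chosen with earlier results of these data known. The genes named are the 7 members, the other pathway genes that were called or did not pass the filter, and for likeness the 3 genes with the highest Pearson r of log2(CPM + 0.1). One further gene is not reported here. Markers were named where their list moved with a member. Separate mice are the replicates, and no pair of libraries in a group agreed within sampling noise. Alternatives were DESeq2 1.42.0, limma 3.58.1, other scalings and filters, a replicate block and leaving out mice. The edgeR step was tested on simulated data. GENCODE vM21 gave symbols and coordinates, which matched those of the count tables for 54821 of 55401 genes.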

Additional observations from a re-analysis of the deposited data

Results flagged for a closer look

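In 42 groups of mice (7 genes in 6 groups), 5 held a highest or lowest mouse whose gap to its nearest neighbour passed Dixon's 95% critical value. Chance flags about 1 group in 20. Agt stood at 69.5 CPM in Pkd1KO+ciliaKO female replicate 1, where the next mouse had 38.9 CPM. Ren1 stood at 42.1 CPM in Pkd1KO male replicate 4 (next 9.32 CPM), at 22.8 CPM in Pkd1KO+ciliaKO male replicate 8 (next 13.0 CPM) and at 17.0 CPM in Pkd1KO+ciliaKO female replicate 5 (next 12.3 CPM). Agtr1a was lowest at 21.5 CPM in Pkd1KO male replicate 3, where the next mouse had 27.4 CPM.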

How the results depend on the processing

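The count of members called was 0 in Pkd1KO against noncystic mice of each sex under every alternative run. In Pkd1KO against Pkd1KO+ciliaKO males it was 0 instead of 1 with the replicate block. In Pkd1KO+ciliaKO against noncystic males it was 1 instead of 0, Ace each time, with DESeq2, voom with sample weights, the 3 genotypes in 1 fit, log2(TPM + 1), log2(TPM + 0.1) and the 4 males left out. In the same contrast in females it was 2 with DESeq2 and 3 with voom, log2(TPM + 1) and log2(TPM + 0.1), instead of 1. In males against females it was 1 instead of 2 in Pkd1KO mice with the replicate block, and 6 with voom and 5 without the 4 males, instead of 3, in Pkd1KO+ciliaKO mice. The count without the 4 males is no test of sex differences, since those males were named for lying near the females. The cause was not tested.

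Leaving out each mouse in turn gave counts of 0 to 1 in Pkd1KO against Pkd1KO+ciliaKO males, 0 to 1 in Pkd1KO+ciliaKO against noncystic males, 1 to 3 and 0 to 2 in the same contrasts in females, and 3 to 4, 1 to 3 and 2 to 4 in the sex comparisons of noncystic, Pkd1KO and Pkd1KO+ciliaKO mice.

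The sign of Ren1 in males changed often. In Pkd1KO against noncystic males its log2 fold change was -0.41 with the replicate block, -0.72 with voom, -0.27 and -0.29 on log2(TPM + 1) and log2(TPM + 0.1), and -0.70 without the 4 males. Leaving out 1 mouse gave -0.79 to 0.28. In Pkd1KO against Pkd1KO+ciliaKO males it was -0.75 with DESeq2 and -0.17, -0.41, -0.39, -0.42 and -0.42 in the order above (leaving out 1 mouse, -0.81 to 0.38). In Pkd1KO+ciliaKO against noncystic males it was -0.026 with the block, -0.30 with voom and -0.29 without the 4 males (leaving out 1 mouse, -0.25 to 0.17). In males against females of the Pkd1KO group it was -0.074 with the block and -0.15 with voom. Without male replicate 4, the only male of the 4 there, it was -0.43, also the lowest value when 1 mouse was left out (-0.43 to 0.67). In noncystic mice leaving out 1 mouse gave -0.018 to 0.27.

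Of 102 values of the 12 called member results under alternatives other than leaving out a mouse, 99 kept their call and none changed sign. The other 3 lost it with the replicate block, namely Anpep in Pkd1KO against Pkd1KO+ciliaKO males, Enpep in males against females of the Pkd1KO group and Mme in those of the Pkd1KO+ciliaKO group (adjusted p = 0.103, 0.0815 and 0.0527). Of 647 values of the 72 uncalled results, 47 changed sign, none of them called, and 24 became calls. Same-numbered mice of 2 groups did not deviate together. Of 61 such pairs, 16 had a correlation above 0.1 (range -0.33 to 0.49) and 10 were best with their own number, so the numbers were not taken as pairs. Precision was limited by the spread between mice, most of all for Ren1.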
